A study of Mus musculus with 12 samples.

Results

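Microtubules are polymers of dimers of alpha- and beta-tubulin, and mammals encode each subunit in several genes, the isotypes, whose products differ mainly in their acidic carboxy-terminal tails. Megakaryocytes make proplatelets by extending and sliding bundles of microtubules, and platelets keep their disc shape through a coiled microtubule ring, the marginal band, whose main beta-tubulin is the product of Tubb1. Tubb1 is largely restricted to the megakaryocyte lineage and is a known target of the transcription factor NFE2, and its loss in mice lowers the platelet count.

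The 10 tubulin genes described here are the beta-tubulin genes Tubb1, Tubb2a, Tubb3, Tubb4b, Tubb5 and Tubb6 and the alpha-tubulin genes Tuba1a, Tuba1b, Tuba4a and Tuba8. They were chosen by name, and all 10 were found among the 41128 genes of the count table. Poly(A) RNA was sequenced from PreMegEs, a bone marrow progenitor stage that can give rise to megakaryocytes or red cells, sorted from C57BL/6 mice of 12-16 weeks of age. There were 4 groups of 3 libraries, and each library held cells pooled from 3 mice. WT cells came from wild type mice. P2- and P2+ cells came from the same reporter genotype, Runx1 P1-GFP::P2-hCD4/+, in which GFP and human CD4 report the distal P1 and the proximal P2 promoter of 1 Runx1 allele, and were P1+ PreMegEs without and with surface hCD4. KO cells came from RUNX1C knockout mice, homozygous for the P1-GFP allele, which keep the transcripts that start at P2. The comparison of P2+ with P2- cells asks how isotype use differs between the progenitors that lean to the megakaryocyte and to the erythroid side. The comparisons with WT set each fraction against wild type PreMegEs, which were not split by a reporter. The paper speaks of Runx1 haploinsufficiency in the reporter mice. These comparisons thus differ in Runx1 genotype as well as in the sort, and the parts of each cannot be told apart. The KO compares cells with and without the RUNX1C isoform. Whether KO libraries were processed with the others was not given, so a batch cannot be told apart from the genotype.

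Libraries held between 10726098 and 14445026 counts (median 12284879), and 3 counts, the limit that a count of 0 allows, corresponded to 0.208-0.280 CPM (counts scaled to library size), covering counting error only. Levels are given in CPM, and levels of different genes are compared only in RPKM (CPM per kilobase of exon). Gene-level Runx1 was 357-387 CPM in WT, 202-217 in P2-, 613-659 in P2+ and 341-381 in KO libraries. It is counted over transcripts of both promoters and so does not check the deletion. Megakaryocyte markers summed to 2494-3441 CPM in P2+, 401-565 in P2-, 1553-1766 in WT and 938-1103 in KO libraries. Erythroid markers summed to 1322-1543, 5959-6769, 3375-3886 and 5717-6417 CPM in the same order, so the cells carried transcripts of both lineages in every group, with only Mmrn1 of the megakaryocyte list at 0 in every library. Whether libraries shared cultures or days was not given, so p-values measure the spread between these pooled libraries. Replicate 2 of the P2- and of the P2+ cells stood apart, with 12413 and 8224 CPM summed over 10 immediate early genes such as Fos against 153-1161 CPM in the other 10 libraries. Without this pair, 2 immediate early genes passed between P2+ and P2- (Egr1 at -1.47 and Dusp1 at 1.38). Calls of the members and microtubule genes that change without it are given beside them. In sorted bulk cells, fewer cells expressing a gene and less RNA per cell cannot be told apart.

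To show where the beta-tubulin tails differ, the last coding bases before the stop codon are printed below for the 5 beta-tubulin genes Tubb1, Tubb2a, Tubb3, Tubb4b and Tubb5, from the GENCODE vM21 transcripts of GRCm38. Capitals mark the codons after the last run of 4 residues that all 6 beta-tubulin members share. The first codons in capitals still encode the same residues in Tubb2a, Tubb3, Tubb4b and Tubb5, and the genes also differ outside this stretch.
Tubb1: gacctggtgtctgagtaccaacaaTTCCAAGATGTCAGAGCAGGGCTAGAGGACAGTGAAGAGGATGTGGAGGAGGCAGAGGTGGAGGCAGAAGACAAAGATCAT
Tubb2a: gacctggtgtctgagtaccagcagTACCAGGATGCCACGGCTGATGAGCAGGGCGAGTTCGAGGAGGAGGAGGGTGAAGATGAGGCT
Tubb3: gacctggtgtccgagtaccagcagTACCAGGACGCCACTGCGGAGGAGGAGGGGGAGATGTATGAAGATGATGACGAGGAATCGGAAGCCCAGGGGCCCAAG
Tubb4b: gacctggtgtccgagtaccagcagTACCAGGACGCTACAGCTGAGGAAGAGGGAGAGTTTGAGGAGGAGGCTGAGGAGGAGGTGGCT
Tubb5: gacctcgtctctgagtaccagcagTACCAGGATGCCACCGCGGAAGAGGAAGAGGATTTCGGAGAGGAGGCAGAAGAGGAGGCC
These stretches lie in the last coding exon of each gene, at chr2:174457775-174457879, plus strand for Tubb1, chr13:34074471-34074557, minus strand for Tubb2a, chr8:123421578-123421679, plus strand for Tubb3, chr2:25222311-25222397, minus strand for Tubb4b and chr17:35834985-35835068, minus strand for Tubb5. The tail in capitals runs to 27 codons in Tubb1, the longest of these, and to 20 in Tubb5, the shortest, and 13 and 11 of them encode acidic residues. Tubb1 was also the most distant member over the whole coding sequence, with 73.5-76.1% identical bases to the other beta-tubulin genes, which matched each other over 80.3-86.0%.

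The ends of Tuba8 and Tuba4a, the alpha-tubulin isotypes known from platelets, are printed because the final residue of alpha-tubulin is a substrate of tubulin-modifying enzymes, and capitals mark what follows the last 4 residues shared by all 4 genes.
Tuba8: gaagaagagaatgagggggaggaaTTT
Tuba4a: gaggacgaggatgagggagaagag
Tuba8 (chr6:121226050-121226076, plus strand) ends with ttt, which encodes phenylalanine, and Tuba4a (chr1:75215625-75215648, minus strand) stops at the shared glutamate codon with nothing in capitals. Tuba1a and Tuba1b were 98.3% identical over their coding bases, against 79.1-85.2% for the other pairs of alpha-tubulin genes.

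This likeness bears on the counts. Of all stretches of 75 bases, the read length, in the main transcript of Tuba1a, 68.2% also occur on the same strand of a transcript of another gene, and the share was 71.9% for Tuba1b, 37.8% for Tubb4b and 43.2% for Tubb2a. For Tubb1, Tubb3, Tubb5 and Tubb6 it was 0%, although Tubb3 overlaps Gm20388 on the same strand, where reads can be ambiguous between the genes. Tuba4a and Tuba8 had no such stretch on the same strand, but 47.2% of Tuba4a overlaps Stk16 and 13.5% of Tuba8 overlaps Gm15856 on the opposite strand. How reads with several alignments were counted, and whether strand was used, was not given in the sources used here, so values of Tuba1a, Tuba1b, Tubb4b, Tubb2a, Tuba4a and Tubb3 carry that uncertainty. For Tuba8 the overlapped gene had at most 0.354 CPM in any library, and for Tubb2a the main gene with shared stretches, Tubb2b, had at most 0.515.

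Most tubulin mRNA came from few genes. Among the beta-tubulin members, Tubb5, the isotype of most dividing cells, made up 70.8-82.3% of the summed RPKM in the 12 libraries and Tubb4b, another widely expressed isotype, 16.7-28.3%. The remaining 4 were minor, at 1.98-6.73 RPKM for Tubb1, 2.66-6.88 for Tubb2a, at most 2.002 for Tubb3 and 0.0579-2.23 for Tubb6. Among the alpha-tubulin members, Tuba4a was at 99.5-118 RPKM and Tuba1b at 82.1-116, followed by Tuba8 at 12.8-57.7 and Tuba1a at 4.19-15.5. In these ranges Tuba4a overlapped Tuba1b, Tuba8 overlapped Tuba1a and Tubb1 overlapped Tubb2a. Tubb3 and Tubb6 overlapped each other and Tubb1.

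**Figure D1:**
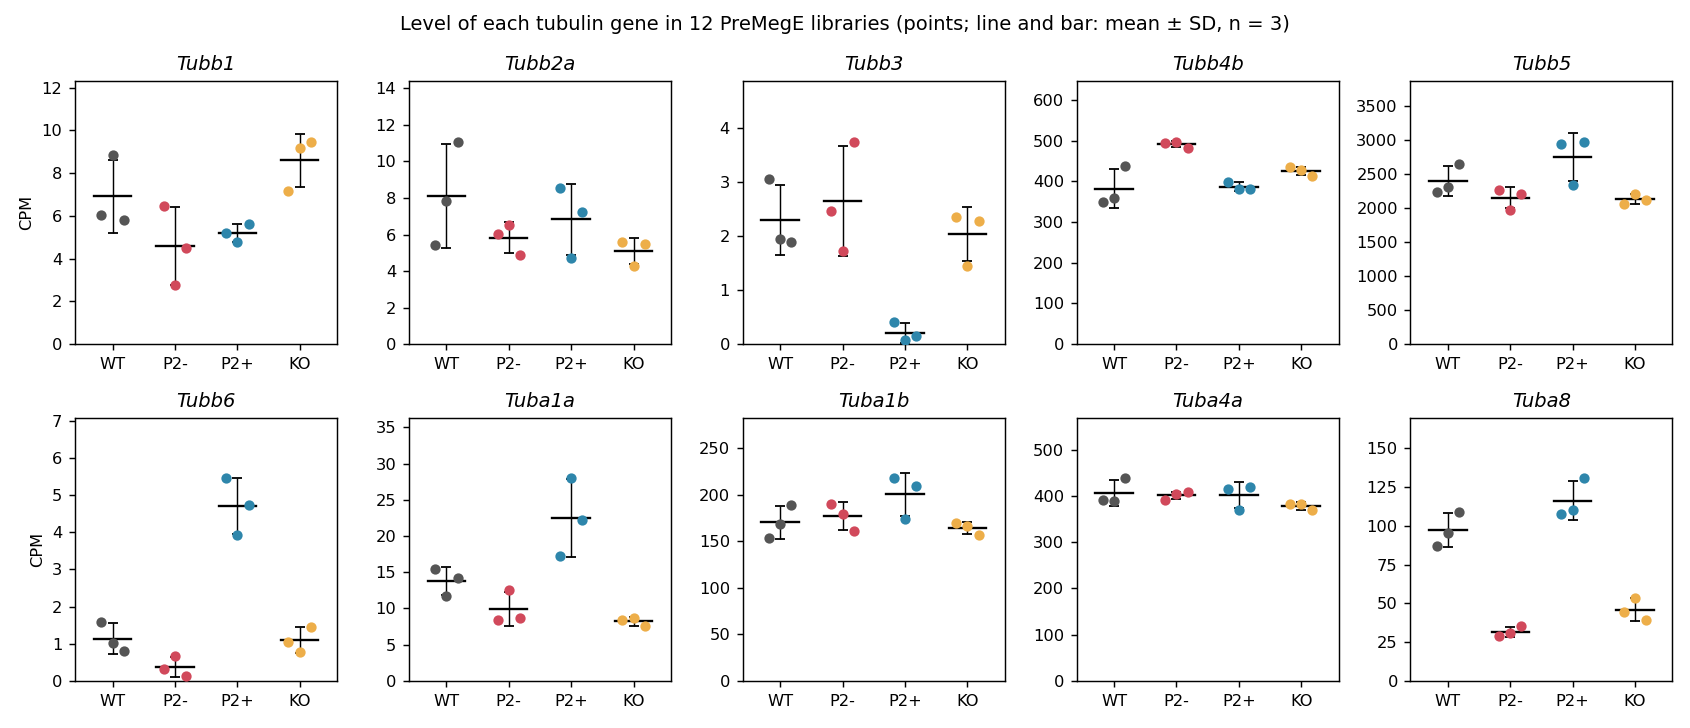
Level (CPM, linear axes from 0) of each of the 10 tubulin genes in 12 PreMegE libraries; points are libraries, and the line and bar are the mean and SD of 3. Tuba8 separates WT and P2+ libraries (87.3-131 CPM) from P2- and KO libraries (29.0-53.8 CPM), while Tubb1 stays between 2.79 and 9.46 CPM in every library.

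Tubb1 (ENSMUSG00000016255, chromosome 2, 174450695-174457882, plus strand) was expressed at a low level in all 4 groups and did not pass the test in any comparison. It had 6.03, 8.87 and 5.83 CPM in the WT libraries, 6.45, 2.79 and 4.52 in P2-, 5.19, 4.76 and 5.64 in P2+ and 7.16, 9.15 and 9.46 in KO, from 29-107 counts a library. The P2+ values lay inside the range of the P2- values and below all WT values, and the KO values overlapped WT at their lower end. The log2 fold change was 0.19 ± 0.31 (SE, n = 3 against 3; edgeR quasi-likelihood test, adjusted p = 0.676, 95% interval -0.52 to 0.89) for P2+ over P2-, and it turned to -0.06 without replicate 2 of P2- and to 0.01 without replicate 2 of both fractions. It was -0.40 ± 0.25 for P2+ over WT (adjusted p = 0.310), -0.58 ± 0.32 for P2- over WT (adjusted p = 0.249) and 0.31 ± 0.22 for KO over WT (adjusted p = 0.407), with intervals of -0.95 to 0.15, -1.28 to 0.12 and -0.16 to 0.78. At this depth the P2+ to P2- interval with all libraries does not reach a 2-fold difference in either direction. With a library left out the estimate ran from -0.06 to 0.51, so this limit holds for the full set only. Between the same P2+ and P2- libraries, 14 of 15 megakaryocyte markers tested, Fli1 among them, rose, against 20.1% of all genes. Their median log2 fold change was 2.48 against -0.02 over all genes.

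Tubb1 mRNA made up 0.362% ± 0.0202 (SD, n = 3) of beta-tubulin RPKM in P2+ libraries, 0.361% ± 0.129 in P2-, 0.542% ± 0.160 in WT and 0.713% ± 0.0958 in KO. The exact two-sided permutation test over libraries gave p = 1 for P2+ against P2-, p = 0.1 for P2+ against WT and p = 0.2 for P2- and for KO against WT, and 0.1 is the smallest p that 3 against 3 allow. Of 9 transcription factors known to act on megakaryocyte genes, listed as regulators of Tubb1, 3 rose (Runx1 at 1.59, Fli1 at 1.93 and Zfpm1 at 0.57 in log2 fold change), 2 fell (Gata1 at -0.54 and Gfi1b at -0.76) and 4 did not pass between P2+ and P2- cells, against 20.1% of all genes higher and 17% lower. Nfe2, which binds DNA with small Maf proteins, was among those that did not pass in any comparison, with 445-529 CPM in WT, 380-459 in P2-, 415-471 in P2+ and 460-493 in KO libraries.

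The sequence before the Tubb1 start is shown because Tubb1 is the platelet isotype and passed in no comparison. It runs over the 250 bases before the RefSeq start on GRCm38.p6 (chr2:174450345-174450594, plus strand).
Tubb1 promoter: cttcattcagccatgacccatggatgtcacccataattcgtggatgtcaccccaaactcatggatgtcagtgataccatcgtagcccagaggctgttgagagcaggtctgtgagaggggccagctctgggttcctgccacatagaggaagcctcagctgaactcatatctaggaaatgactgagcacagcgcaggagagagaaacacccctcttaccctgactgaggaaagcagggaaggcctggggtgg
It is printed without capitals, since no match was found in the 300 bases around the start, on either strand, for the letters of 5 factor families. The RUNX letters were TGTGGT, or the same with C as the third base, and were found in 22.4% of all 32851 promoter windows of that length. The GATA letters were GATAA or GATAG after an A or a T, found in 29.8% of windows. The NF-E2 letters TGAGTCA were found in 5.20% of windows. The ETS letters GGAAGT after a C or an A were found in 15.1%, and the KLF letters CCACACCC in 3.56%. Their absence says only that those letters are not in this window. The GENCODE transcript of Tubb1 starts further downstream, at 174450695, past the end of the window, so the bases just before that start were not searched.

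The comparison of P2+ with P2- cells is the widest, with 37.1% of all 12836 genes tested passing an adjusted p under 0.05 (20.1% higher and 17% lower in P2+). Of the 10 tubulin genes tested, 6 passed, and the same 6 had groups that did not overlap: Tuba8, Tuba1a, Tubb5 and Tubb6 were higher and Tubb3 and Tubb4b lower in P2+ cells. Tubb6 and Tubb3 entered the test only through the group in which they were high, so their passing is a description. By at least 2-fold, 3 members were higher and 1 lower, against 9.54% and 3.13% of all genes (12.7% together). Tubb6 and Tubb3 are among them, so only Tuba8 and Tuba1a, both higher, count apart from these descriptions. Groups did not overlap for 49.9% of all genes, 24.7% above and 25.1% below. The median log2 fold change of the 10 was 0.22, against -0.02 over all genes, and single members ran from -3.63 to 3.69.

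Tuba8 (ENSMUSG00000030137, chromosome 6, 121210696-121226854, plus strand), an alpha-tubulin found in platelets, testis and muscle, changed with the smallest p of the members. It had 29.0, 31.1 and 35.4 CPM in P2- libraries and 108, 110.4 and 131 in P2+ libraries. The groups lay far apart, with a log2 fold change of 1.88 ± 0.11 (3.68-fold; edgeR, adjusted p = 6.24e-06). WT libraries, at 87.3, 95.3 and 109 CPM, overlapped P2+ and did not differ past the threshold from it (0.26 ± 0.10, adjusted p = 0.117, interval 0.03 to 0.49). P2- cells were 3.05-fold below WT (log2 fold change -1.61 ± 0.11, adjusted p = 2.27e-05). KO libraries, at 44.6, 53.8 and 39.0 CPM, lay below all WT and above all P2- libraries, and Tuba8 fell by 1.09 ± 0.11 on the log2 scale from WT to KO (adjusted p = 1.89e-06). Its share of alpha-tubulin RPKM followed the same order, with 18.4% ± 1.52 (SD, n = 3) in P2+, 17.1% ± 0.600 in WT, 9.42% ± 1.23 in KO and 6.34% ± 0.784 in P2-. The Tuba8 calls of P2+ over P2-, P2- over WT and KO over WT held under every alternative run for them.

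The Tuba8 promoter is printed for the member with the smallest p. The RefSeq record on GRCm38.p6 starts 250 bases before its start site, and only the 212 bases before the first base of the GENCODE transcript are given (chr6:121210484-121210695, plus strand), with the single match in capitals.
Tuba8 promoter: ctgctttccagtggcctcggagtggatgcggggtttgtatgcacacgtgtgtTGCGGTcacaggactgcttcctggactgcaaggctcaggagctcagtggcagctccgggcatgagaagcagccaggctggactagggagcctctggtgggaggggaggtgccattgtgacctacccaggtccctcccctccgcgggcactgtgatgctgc
The capitals mark TGCGGT, counted among the RUNX letters, beginning at position -198 from the RefSeq start. Of the 9 members with a promoter record (Tubb6 had none), Tuba4a also held TGCGGT, on the minus strand, while Tubb4b, Tuba1b and Tubb5 held GATA letters, and no member held NF-E2, ETS or KLF letters. A RUNX match occurs in 22.4% of all promoters, and a match is not a binding site.

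Tuba1a, an alpha-tubulin best known from developing neurons, had 8.36, 12.6 and 8.75 CPM in P2-, 17.3, 28.0 and 22.3 in P2+, 15.5, 11.7 and 14.2 in WT and 8.47, 8.64 and 7.55 in KO libraries. All P2+ libraries exceeded those of the other groups, and all KO libraries were below WT. It rose 2.30-fold from P2- to P2+ (log2 fold change 1.20 ± 0.23, adjusted p = 0.00346) and was lower in KO than WT by -0.76 ± 0.17 (adjusted p = 0.00620). The difference between P2+ and WT (0.71 ± 0.19, adjusted p = 0.0294) was lost when any WT library or replicate 2 or 3 of P2+ was left out, with adjusted p of 0.0575-0.116. Tuba1c, which shares 39.9% of the Tuba1a stretches, had 20.1-22.3 CPM in P2- and 38.7-50.9 in P2+ libraries and rose too (1.15 ± 0.13, adjusted p = 0.000207). In KO over WT Tuba1c did not pass (-0.19 ± 0.12, adjusted p = 0.344). The more abundant Tuba1b shares 34.2% of the Tuba1a stretches. Reads in shared stretches cannot be assigned to 1 of these genes with certainty. Tuba1b, with 161-190 CPM in P2- and 174-217 in P2+ libraries, overlapped (0.19 ± 0.10, adjusted p = 0.180) and passed with the replicate number as a block (adjusted p = 0.0437) and without replicate 2 of both fractions (0.31, adjusted p = 0.0221).

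Tubb5 and Tubb4b, the abundant beta-tubulin genes, moved by small amounts in opposite directions. Tubb5 had 2272, 1981 and 2213 CPM in P2- libraries and 2946, 2347 and 2979 in P2+ libraries. All P2+ values were higher, by a log2 fold change of 0.37 ± 0.10 (adjusted p = 0.0155). Tubb4b had 495, 497 and 482 CPM in P2- and 399, 381 and 380 in P2+ libraries, all lower, by -0.33 ± 0.07 (adjusted p = 0.00486). Under edgeR's exactTest neither passed (adjusted p = 0.153 and 0.0861), and Tubb5 also missed without replicate 1 or 3 of P2+ (0.0605 and 0.0621). Tubb4b-ps1, a pseudogene that shares 33.7% of the Tubb4b stretches, moved in the same direction without passing (-0.23 ± 0.11, adjusted p = 0.125).

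Between these fractions, Tubb4b took 26.5% ± 1.62 (SD, n = 3) of beta-tubulin RPKM in P2- and 18.2% ± 1.90 in P2+ libraries, against 19.9% ± 0.541 in WT and 23.8% ± 0.845 in KO. Summed beta-tubulin RPKM was 841-930 in P2-, 896-1088 in P2+, 852-1020 in WT and 840-879 in KO libraries and overlapped between P2+ and P2- (exact permutation test without pairing, p = 0.3). By replicate number, which pairs these fractions, the beta sum was 930 in P2- and 1088 in P2+ for replicate 1, 841 and 896 for replicate 2, and 904 and 1088 for replicate 3. It was higher in P2+ in 3 of 3 pairs, and the overlap came from replicate 2 of P2+. Summed alpha-tubulin RPKM was 217-225 in P2-, 257-295 in P2+, 235-275 in WT and 205-220 in KO libraries, and did not overlap between P2+ and P2-, P2- and WT, or KO and WT (exact permutation p = 0.1 each, the smallest possible). Between P2+ and P2- all 20 listed mitosis genes rose, with a median log2 fold change of 0.98, where 20.1% of all genes were higher. Markers of other lineages rose too, with 6 of 11 neutrophil and monocyte markers (324-476 CPM summed in P2+, 67.9-170 in P2-), 4 of 4 mast and basophil markers (100.4-157 and 31.8-37.6 CPM) and 5 of 7 lymphoid markers (46.7-151 and 19.7-33.8 CPM). None of the markers tested in these 3 lists fell. Without replicate 2 of both fractions, 5 of 6, 3 of 3 and 3 of 3 of those still tested rose, against 20.3% of all genes. Irf8 (1.99) was among them and had not passed with all libraries. Mpo (3.24), Lyz2 (2.12) and Cpa3 (1.24) were among those higher. The part of these genes in the tubulin values was not tested. Between KO and WT the mitosis genes' summed level overlapped (2986-3302 and 3001-3419 CPM), and 4 of 20 passed, all lower, against 8.76% of all genes lower.

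**Figure D2:**
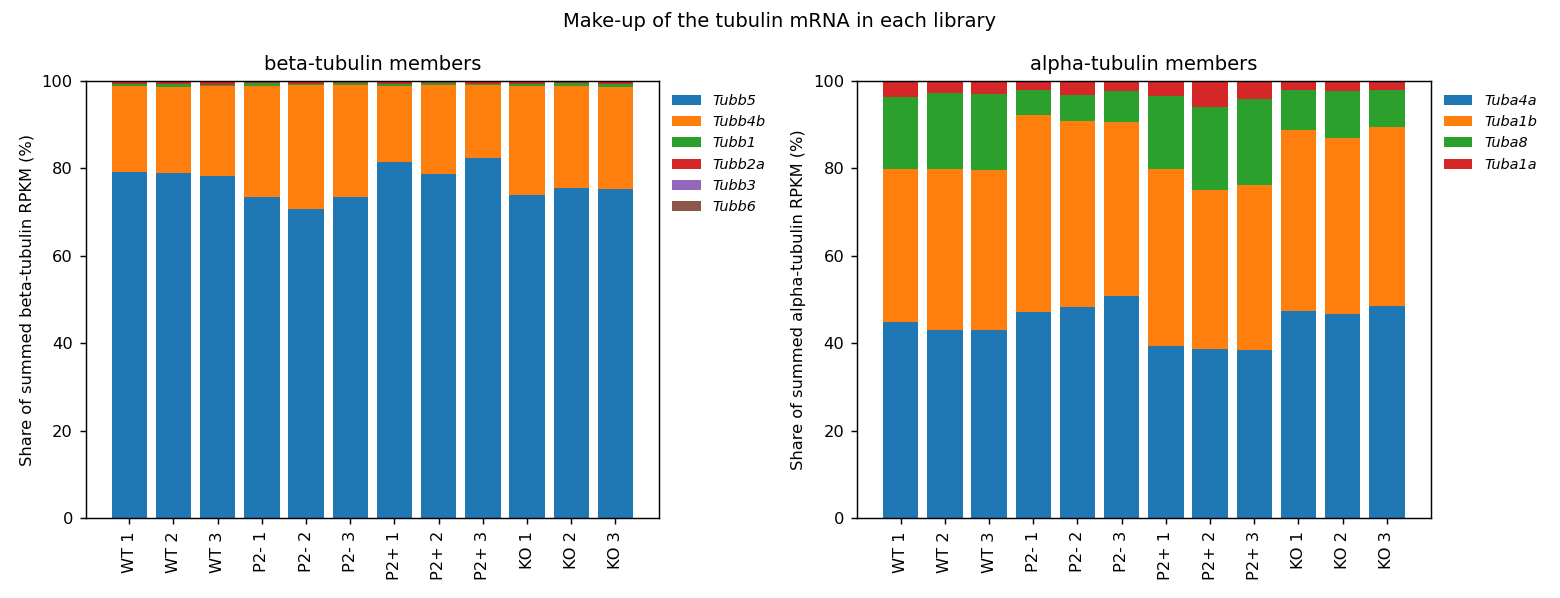
Share (%) of each member in the summed RPKM of the beta-tubulin (left) and alpha-tubulin (right) members, 1 bar per library. Tubb5 and Tubb4b fill nearly all of the beta bars, and the Tuba8 part shrinks from 16.4-19.5% in WT and P2+ to 5.70-10.8% in P2- and KO libraries.

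Tubb6 and Tubb3 were near the detection limit in some groups, with 1-7 counts in their low fraction. They showed the largest folds of the members in P2+ over P2-. Both entered the tests of P2+ against P2- and against WT only through the group in which they were high. Their folds and intervals there are descriptions, and no p-value is given for them. Tubb6, a widely expressed minor isotype, had 4, 7 and 2 counts (0.318, 0.672 and 0.141 CPM) in P2- libraries, 65, 57 and 62 counts (5.44, 3.93 and 4.73 CPM) in P2+ libraries, 0.801-1.59 CPM in WT and 0.770-1.46 in KO. The P2+ libraries were above all others, with a log2 fold change of 3.69 ± 0.49 over P2- (interval 2.57 to 4.80, and 4.34 without P2- replicate 2) and 2.03 ± 0.36 over WT. Tubb3, the neuronal beta-tubulin, showed the reverse, with 31, 18 and 53 counts (2.47, 1.73 and 3.74 CPM) in P2- and 5, 1 and 2 counts (0.419, 0.0690 and 0.153 CPM) in P2+ libraries. It was 1.89-3.05 CPM in WT and 1.45-2.36 in KO libraries, so only the P2+ libraries stood apart. Its log2 fold change was -3.63 ± 0.62 for P2+ over P2- (interval -5.04 to -2.21) and -3.43 ± 0.60 for P2+ over WT, and without P2+ replicate 1 these became -4.48 and -4.28. Tubb3 lies on the same strand as Gm20388, and its position is chromosome 8, 123411424-123422015, plus strand. With any P2- library left out Tubb3, and with any P2+ library left out Tubb6, could not be tested between these fractions, since fewer than 3 libraries then reached 1 CPM, and Tubb3 could not be tested against WT without any WT library.

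Against WT, 16.5% of all genes passed in P2+ and 16.5% in P2- cells, and these comparisons share their WT libraries. In P2+ cells 9.45% of all genes were higher and 7.07% lower, and 3 of 10 members passed, namely Tubb6 and Tuba1a, which were higher, and Tubb3, which was lower. Tubb3 entered this test only through WT and Tubb6 through P2+, since 2 WT libraries alone would not have met the filter, so both are descriptions. Only Tubb6 and Tubb3 were past 2-fold, so that count is a description too. Of all genes 3.84% were past 2-fold (2.16% higher and 1.68% lower). Groups did not overlap for 4 members, the 3 that passed and Tubb1, against 35.5% of all genes (18% above and 17.5% below). Tubb5 (0.30, adjusted p = 0.0343) and Tuba1b (0.33, adjusted p = 0.0231) passed without P2+ replicate 2. In P2- cells 6.85% of all genes were higher and 9.6% lower, and 2 of 9 members passed and did not overlap: Tuba8, which fell, and Tubb4b, which was higher (0.37 ± 0.09, adjusted p = 0.0243; WT 349, 359 and 437 CPM). Tubb4b lost this call under exactTest (adjusted p = 0.0937) and without WT replicate 1 or 2 or P2- replicate 1 or 3 (0.0515-0.117). Past 2-fold was Tuba8, against 4.68% of all genes (0.572% higher and 4.1% lower), and groups did not overlap for 35.1% (17% above and 18.1% below). Tuba1a passed without P2- replicate 2 (-0.70, adjusted p = 0.0267). Tubb6 was too low to be tested there, with no library of P2- and 2 of WT at 1 CPM. Tubb2a (4.28-11.1 CPM) and Tuba4a (368-437 CPM) did not pass in any comparison. For P2+ over P2- Tubb2a was at 0.24 ± 0.27, and at 0.56 without replicate 2 of both fractions. The Tuba4a intervals stayed within -0.24 to 0.19 on the log2 scale.

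In KO cells 14.9% of all genes passed against WT, 6.18% higher and 8.76% lower, and 2 of 10 members passed, Tuba8 and Tuba1a, both lower. Past 2-fold was Tuba8, against 3.41% of all genes (0.743% higher and 2.67% lower), and 4 members, these and Tubb5 and Tuba4a, did not overlap, against 31.8% (15.7% above and 16.1% below). Tubb5 lay below every WT library in KO (2067, 2208 and 2128 against 2246, 2309 and 2657 CPM; -0.18 ± 0.07, adjusted p = 0.0956), and passed with DESeq2 (adjusted p = 0.0477), without scaling factors (0.0457), without a filter (0.0248), with the replicate block (0.0209) and without WT replicate 1 (0.0380). Tubb2a (-0.68 ± 0.26, adjusted p = 0.0993) passed without a filter (0.0399) and without WT replicate 1 (-0.91, adjusted p = 0.0165), and Tubb4b (0.15 ± 0.08) without WT replicate 3 (0.26, adjusted p = 0.00684). Tubb3 (-0.19 ± 0.39, interval -1.01 to 0.62) and Tubb6 (-0.08 ± 0.49, interval -1.10 to 0.94) had wide intervals. Megakaryocyte markers moved beside Tuba8 in this comparison, with 10 of 16 lower and 2 higher, as did 11 of 16 erythroid markers that were higher. Of 10 neutrophil and monocyte markers tested, 6 were lower (Mpo at -1.58, Elane at -2.34, Prtn3 at -0.60, Ctsg at -1.84, Ms4a3 at -1.48 and Lyz2 at -0.81), and the list summed to 88.4-145 CPM in KO and 187-338 in WT libraries. Of 3 mast and basophil markers 2 were higher (Cpa3 at 0.98 and Ms4a2 at 0.71), and of 8 lymphoid markers 2 were lower (Cd79b at -0.58 and Il7r at -2.95). Their part in the Tuba8 difference was not tested.

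**Figure D3:**
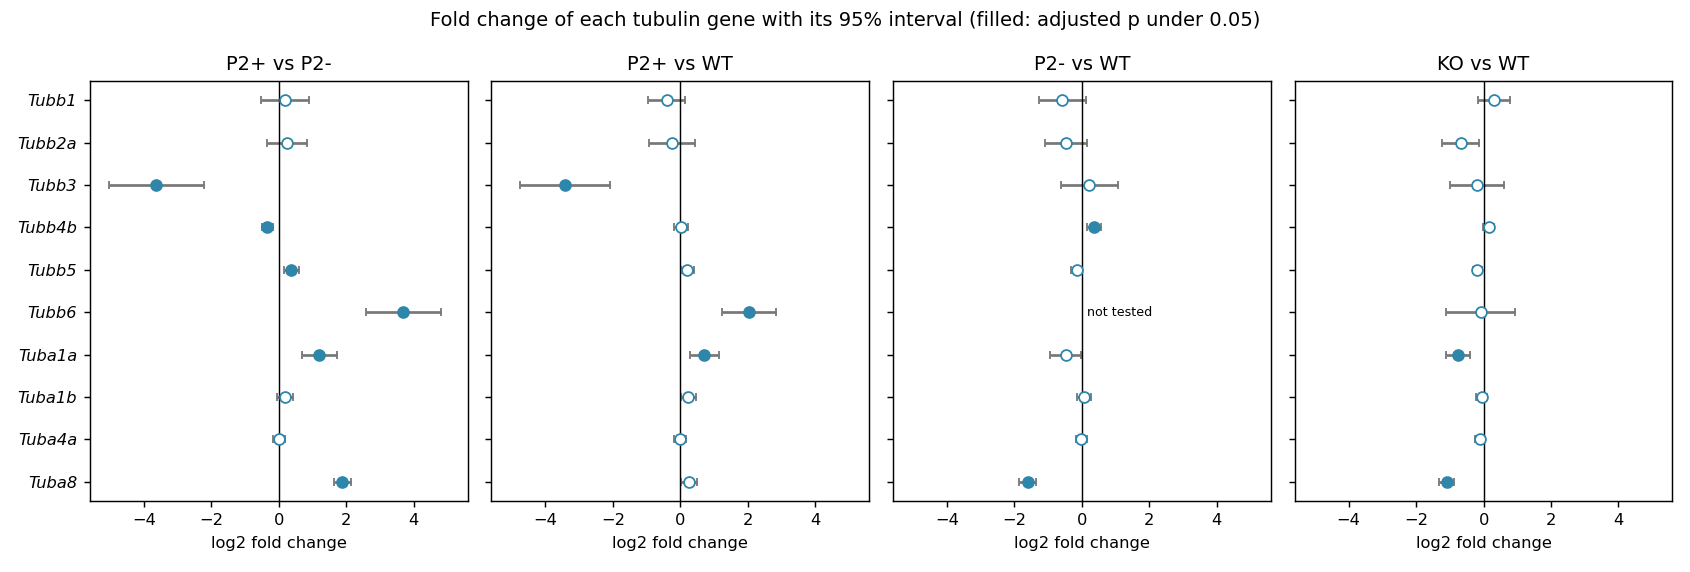
Log2 fold change of the 10 members with 95% intervals in the 4 comparisons, filled points having an adjusted p under 0.05. Tubb1 crosses 0 in each panel, Tuba8 lies left of 0 for P2- vs WT (-1.61) and KO vs WT (-1.09), and Tubb3 and Tubb6 have the widest intervals.

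Other genes of the microtubule system were read from lists. Of the 10 further tubulin genes, 5 were tested, and Tuba1c was the only gene that changed. It rose in P2+ over P2-, where 20.1% of all genes were higher, and over WT (0.83 ± 0.12, adjusted p = 0.00116), where 9.45% were. Tubb2b, Tuba3a, Tuba3b, Tubal3 and the gamma-tubulin gene Tubg2 stayed under 1 CPM in every library.

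Genes of tubulin modification changed in both directions between P2+ and P2- cells, with 4 of 15 tested higher, 5 lower and a list median of -0.02, against 20.1% of all genes higher, 17% lower and a median of -0.02. Without replicate 2 of both fractions, 2 of 14 were higher and 3 lower, against 20.3% and 16.8% of all genes. Ttl (adjusted p = 0.0635), Agtpbp1 (0.0504) and Atat1 (0.0605) no longer passed, and Vash2 was not tested. Vash1 and Vash2, carboxypeptidases that remove the terminal tyrosine of alpha-tubulin, had the largest rises. Vash1 had 4.14, 3.27 and 4.45 CPM in P2- and 20.7, 23.5 and 17.4 in P2+ libraries (2.38 ± 0.20, adjusted p = 3.40e-05). Vash2 had 1, 2 and 9 counts in P2- and 51, 51 and 66 in P2+ libraries (3.73 ± 0.56, adjusted p = 0.00104), and it entered the test only through P2+. WT libraries had 4.78-9.25 CPM of Vash1, between the fractions. For Vash2 they had 2.15-4.15 CPM and overlapped P2+ (3.52-5.03 CPM; 0.55 ± 0.34, adjusted p = 0.305). Ttl, the ligase that puts the tyrosine back, rose by 0.34 ± 0.11 (adjusted p = 0.0402). Ttll12, of the ligase-like family, fell by 1.43 ± 0.09 on the log2 scale, with 239, 201 and 208 CPM in P2- and 82.8, 74.2 and 81.6 in P2+ libraries. Against WT it was 0.62 ± 0.08 higher in P2- and 0.45 ± 0.06 higher in KO cells, the only gene of the list that passed in KO. Among the deacetylases of the list, which act on a lysine outside the tail, Hdac6 rose (0.97 ± 0.15) and Sirt2 fell (-0.77 ± 0.14) in P2+ over P2-.

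**Figure D4:**
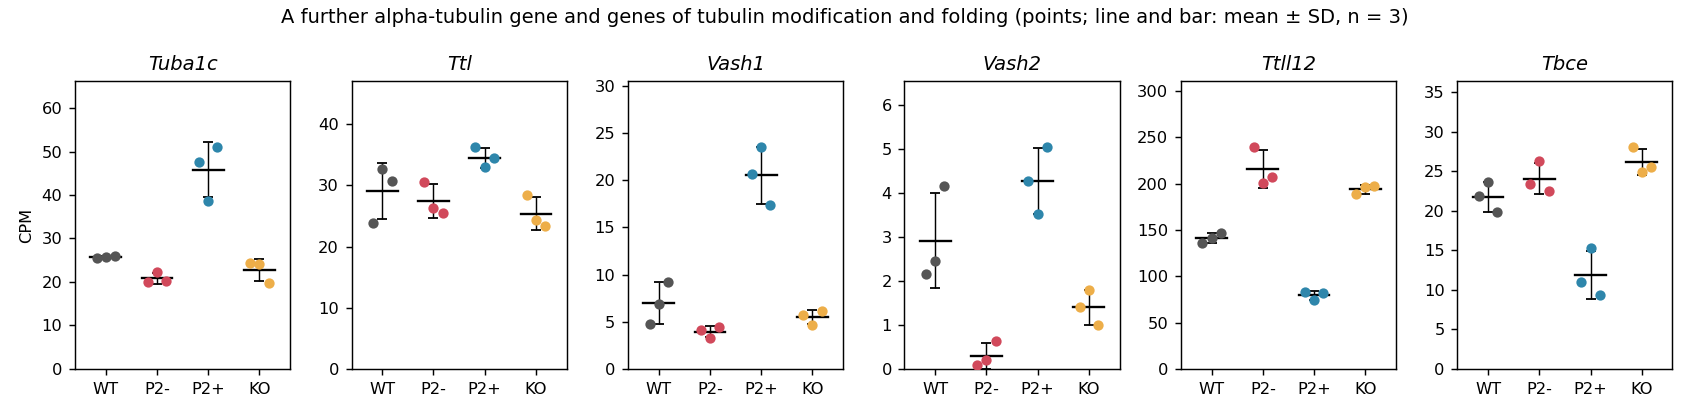
Level (CPM, linear axes from 0) of Tuba1c and 5 genes of tubulin modification and folding in the 12 libraries; points are libraries, and the line and bar are the mean and SD of 3. Vash1 reaches 17.4-23.5 CPM in P2+ libraries and at most 9.25 elsewhere, and Ttll12 runs from 74.2-82.8 CPM in P2+ to 201-239 in P2- libraries.

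Tubulin folding genes fell where they changed between P2+ and P2- cells, with 10 of 22 lower, none higher and a median of -0.32, against 17% of all genes lower and a median of -0.02. They included 7 subunits of the CCT chaperonin (Tcp1, Cct2, Cct3, Cct5, Cct6a, Cct7 and Cct8, at -0.34 to -0.50) and Tbce, a chaperone of alpha-tubulin, with 23.4, 26.3 and 22.5 CPM in P2- and 11.1, 15.3 and 9.30 in P2+ libraries (-1.004 ± 0.19, adjusted p = 0.00371). No folding gene passed in KO over WT (edgeR, 0 of 22), against 14.9% of all genes.

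Of 17 genes of microtubule dynamics tested, 7 were higher and 1 lower in P2+ than P2- cells, with a median of 0.14, against 20.1% and 17% of all genes. They included the microtubule-depolymerising kinesins Kif2c (0.85 ± 0.22) and Kif2a (0.67 ± 0.07), the polymerase Ckap5 (0.59 ± 0.10) and, lower, Clasp1 (-0.27 ± 0.07). Stmn1, which sequesters tubulin dimers, was higher in P2+ (0.43 ± 0.10) and lower than WT in KO (-0.36 ± 0.07, with Ckap5 at -0.23 and Map7d1 at -0.41). In the dynein and kinesin transport list, 2 of 16 rose (Dynll2 at 0.81 and Kif5b at 0.24) and 2 fell (Dctn6 at -0.67 and Klc2 at -0.60) between P2+ and P2-, with a median of -0.09, against 20.1% and 17% of all genes, and Klc2 did not pass without replicate 2 of both fractions (adjusted p = 0.0596). Kif5a, a kinesin heavy chain, had 16, 16 and 14 counts in WT, 0, 2 and 0 in KO, 3, 5 and 0 in P2- and 6, 2 and 2 in P2+ libraries, so it was low in all groups but WT. It entered each test against WT only through WT, so its passing in KO and P2+ is a description, and no fold is given.

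Over the 12 libraries, the genes most like each member in log2 CPM (Pearson r, at least 10 CPM on average) were listed as a description, and the points share their 4 groups. Tuba8 was closest to S100a1 (0.99), Anxa5 (0.99) and Rab38 (0.99), and Tuba1a to Litaf (0.98), Icam1 (0.97) and Tmem98 (0.97). Tubb6 was closest to Mb21d1, Sirpa and Runx2 (0.96-0.97) and Tubb3 to Nme4, Tspo2 and Zfp54 (0.97 each). Tubb1, from 29-107 counts a library, was closest to Zc3h6 (0.89), Ubr2, Lysmd4, Arhgef12 and Khnyn (0.86). With the other members Tubb1 ran from -0.42 (Tuba1a) to 0.21 (Tubb3), with 0.09 for Tuba8 and 0.01 for Tubb6. Tuba8 and Tuba1a reached 0.80, and Tubb3 ran against both Tubb6 (-0.82) and Tuba1a (-0.83).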

How the data were processed

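RNA-Seq was carried out on strand-specific poly(A) libraries, made from 50 ng of RNA with 16 cycles of amplification and read as pairs of 75 bases. The authors aligned reads to GRCm38 with Bowtie2 (2.21 in the submitters' processing notes) and counted them per Ensembl gene using featureCounts, and the deposited table holds whole-number counts without normalization. Whether KO libraries were processed with the others was not given in the sources used here.

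Counts were scaled by TMM in edgeR 4.0.16 (R 4.3.3). A gene was kept when 3 or more of the 6 libraries in a comparison reached 1 CPM, and was tested by the quasi-likelihood test (glmQLFTest) on group alone, with Benjamini-Hochberg adjustment over all genes tested, two-sided, and called at an adjusted p under 0.05. A further count required 2-fold. Sums and shares of RPKM were compared by exact permutation over libraries. RPKM used exonic length over all transcripts in GENCODE vM21. The fits were tested on simulated counts with known folds. Libraries of P2+ and P2- with the same number deviated together (correlations of 0.386, 0.572 and 0.405 over genes), so these numbers pair the samples. The main fits and the permutation tests left this pairing out, and the replicate block is given among the alternatives.

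The members and the lists were chosen with earlier results of these data known. The genes named are all 10 members, their 3 most similar genes (5 for Tubb1), of each microtubule list up to 3 genes in each direction with the largest change, Runx1 and defining markers; Nfe2, Tubb4b-ps1, Ttl, Sirt2, the CCT subunits, the myeloid, mast cell and lymphoid markers that passed in KO or P2+, the other transcription factors, the genes with shared stretches and lower-ranked list genes were named after their values were seen. Sequences came from GENCODE vM21 transcripts and RefSeq promoters, read with Biopython. The coding ends of the other alpha-tubulin members are not reported here. Alternatives were RLE scaling, library size alone, exactTest, DESeq2 1.42.0, no filter, all 12 libraries in 1 fit, a replicate block, each library left out, transcript length and a 2-fold minimum. The listed genes were also fitted without replicate 2 of both P2+ and P2-, chosen after seeing the data.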

Additional observations from a re-analysis of the deposited data

How the results depend on the processing

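The number of members that passed stayed within 1.5 times in P2+ against P2- cells (6, and 4-7 under the alternatives, with 4-6 when a library was left out, where 28.5-34.6% of all genes passed). In P2+ against WT it was 3, and 1-4 with a library left out (9.49-19.1% of all genes), with 1 without any WT library, where Tubb3 could not be tested. In P2- against WT it was 2, and 1 with the 2-fold minimum and with exactTest (15.1% of all genes), and 1-3 with a library left out (8.5-17.3%), with 1 without WT replicate 1 or 2 or P2- replicate 1 or 3. In KO against WT it was 2, and 1 with the 2-fold minimum, 4 without a filter (11.7% of all genes) and 2-4 with a library left out (9.41-13.1%), with 4 without WT replicate 1. Tubb1's share of beta-tubulin RPKM differed by 0.000819 percentage points between P2+ and P2-, and by -0.062 to 0.0667 with a library left out. The summed beta-tubulin difference of P2- from WT, -25.4 RPKM, ran from -57.7 to 26.3. Log2 fold changes that reversed did not pass in either fit. Without a filter Tuba4a in P2+ over P2- turned to -0.0049. With a library left out, P2+ over P2- ran from -0.061 to 0.51 for Tubb1 and from -0.013 to 0.088 for Tuba4a. P2+ over WT ran from -0.48 to 0.044 for Tubb2a, from -0.040 to 0.13 for Tubb4b and from -0.048 to 0.047 for Tuba4a. P2- over WT ran from -0.13 to 0.47 for Tubb3, from -0.015 to 0.14 for Tuba1b and from -0.047 to 0.043 for Tuba4a. KO over WT ran from -0.32 to 0.066 for Tubb3, from -0.34 to 0.25 for Tubb6 and from -0.13 to 0.019 for Tuba1b. The cause of these changes was not tested.

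With the replicate number as a block, 7 members passed in P2+ against P2- (adding Tuba1b), 2 in P2+ against WT (without Tuba1a, adjusted p = 0.0545), 2 in P2- against WT and 3 in KO against WT (adding Tubb5). Of all genes 50.7%, 14.7%, 11.5% and 16.4% passed with the block in these comparisons. Outside P2+ and P2-, same-numbered libraries correlated at -0.085 to 0.159 and are not shown to be pairs. Depth limits Tubb3 and Tubb6, with 1-7 counts in their low group.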
